A study of Mus musculus with 10 samples.

Results

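The 4 Hox clusters were followed through H3K4me3 ChIP-seq of mouse germinal vesicle (GV) oocytes that had lost the H3K4 methyltransferase SETD1B. The members were the 5 kb windows whose assigned gene was Hoxa, Hoxb, Hoxc or Hoxd followed by a number, which came to 51 of 544879 windows (10 of Hoxa, 16 of Hoxb, 11 of Hoxc and 14 of Hoxd). The clusters were selected on earlier results of the same cKO and WT values, so every difference between genotypes over them is given as a description. Windows named as called come from a fit over all windows, and such calls inside the clusters are no independent support for a gain. Each window carries 1 assigned gene only. For this reason 27 of the 39 Hox genes appeared as an assignment, and 12 (Hoxa3, Hoxa4, Hoxa5, Hoxa6, Hoxb5, Hoxb6, Hoxc5, Hoxc6, Hoxc8, Hoxc9, Hoxd4 and Hoxd8) had their starts in windows assigned to another gene, such as the overlapping Gm20653 and Gm20398 or, for Hoxd4 and Hoxd8, the neighbours Hoxd3 and Hoxd9. All windows from the first to the last member of each cluster were therefore described as well. They were 103 windows on GRCm38, namely 22 for Hoxa (chr6:52155001-52265000), 36 for Hoxb (chr11:96190001-96370000), 24 for Hoxc (chr15:102920001-103040000) and 21 for Hoxd (chr2:74665001-74770000), and 52 of them lay between members. In GENCODE M21, 50 of the 51 members overlapped a Hox gene; the exception was a window assigned to Hoxb2 at chr11:96355001-96360000.

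Both genotypes were C57BL6 mice by the labels (C57BL/6OlaHsd in the study's methods) with 2 floxed alleles of Setd1b, and oocytes were collected at 21 days of age. In Setd1b cKO mice the Gdf9 promoter drives Cre recombinase in growing oocytes, so the gene is deleted in the oocytes themselves as they grow, while WT mice carried no Cre according to the labels (the study's methods also list heterozygous mice with Cre among the WT). Each library came from about 200 pooled oocytes, and H3K4me3 was profiled in 3 such pools per genotype, numbered 1, 3 and 4 for cKO and 1, 2 and 4 for WT. Input libraries, sequenced without precipitation, were those of replicates 1 and 4 of each genotype.

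Hox genes encode homeodomain transcription factors that give body segments their identity along the head-to-tail axis. They lie in 4 clusters that arose by duplication, and genes at the same place in different clusters are called paralogues and share a number, with low numbers used anteriorly and high numbers posteriorly. The clusters are rich in CpG dinucleotides and are classic targets of Polycomb repression in cells that do not use them. H3K4me3 marks active promoters in most cells, whereas in the growing oocyte it also spreads over untranscribed CpG-rich DNA through the methyltransferase MLL2.

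RefSeq promoter entries (GRCm38.p6, 250 bases before to 50 after a start) were at hand for 22 of the 39 Hox genes, as 24 sequences of 300 bases. They held a median of 14.5 CG dinucleotides (range 4 to 45), against a median of 7 in all 32851 promoters of the table. The sequences below are those in the window with the highest and the lowest cKO minus WT difference among Hox entries (Hoxa10 and Hoxb1), and those with the highest difference in the other 3 clusters (Hoxb4, Hoxc4, Hoxd9); every CG is in capitals. Hoxa10 has a second entry nearer to Hoxa9, and Hoxc4 is the only entry of its cluster.
Hoxa10 (chr6:52240805-52241104, minus strand): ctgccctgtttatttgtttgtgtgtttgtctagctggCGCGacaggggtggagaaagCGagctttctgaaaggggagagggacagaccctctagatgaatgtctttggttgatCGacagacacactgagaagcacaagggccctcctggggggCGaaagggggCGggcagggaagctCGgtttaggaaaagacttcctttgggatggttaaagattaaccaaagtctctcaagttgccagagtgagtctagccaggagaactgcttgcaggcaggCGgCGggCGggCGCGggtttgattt
Hoxb4 (chr11:96318017-96318316, plus strand): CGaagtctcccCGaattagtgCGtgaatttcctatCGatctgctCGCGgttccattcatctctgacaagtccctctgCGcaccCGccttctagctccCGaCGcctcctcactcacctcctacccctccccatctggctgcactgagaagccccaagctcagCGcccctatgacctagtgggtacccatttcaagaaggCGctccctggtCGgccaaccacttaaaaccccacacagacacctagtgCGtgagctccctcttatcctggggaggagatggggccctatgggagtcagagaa
Hoxc4 (chr15:103034145-103034444, plus strand): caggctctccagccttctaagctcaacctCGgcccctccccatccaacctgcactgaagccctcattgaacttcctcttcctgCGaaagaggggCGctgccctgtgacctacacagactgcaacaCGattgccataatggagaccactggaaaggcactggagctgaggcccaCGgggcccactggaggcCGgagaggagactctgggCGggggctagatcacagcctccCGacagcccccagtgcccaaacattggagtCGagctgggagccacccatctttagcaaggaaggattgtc
Hoxd9 (chr2:74697513-74697812, plus strand): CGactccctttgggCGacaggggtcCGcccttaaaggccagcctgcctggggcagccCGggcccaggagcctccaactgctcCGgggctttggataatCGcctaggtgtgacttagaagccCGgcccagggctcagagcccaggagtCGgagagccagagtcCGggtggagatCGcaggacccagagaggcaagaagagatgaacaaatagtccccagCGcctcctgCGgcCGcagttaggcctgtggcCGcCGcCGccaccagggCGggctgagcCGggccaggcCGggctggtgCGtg
Hoxb1 (chr11:96365508-96365807, plus strand): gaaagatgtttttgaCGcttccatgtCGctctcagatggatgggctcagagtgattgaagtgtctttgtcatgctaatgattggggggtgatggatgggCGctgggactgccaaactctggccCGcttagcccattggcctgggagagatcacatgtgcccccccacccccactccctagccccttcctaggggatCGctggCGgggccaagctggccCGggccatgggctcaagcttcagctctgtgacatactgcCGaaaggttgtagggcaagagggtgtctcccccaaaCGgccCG
The Hoxa10 sequence held 12 CG, Hoxb4 held 14, Hoxc4 held 9, Hoxd9 held 20 and Hoxb1 held 10. As many or more were found in 39.6%, 36.3%, 45.8%, 26.5% and 43.5% of all promoters of the table, so none of these 5 stood at the CpG-rich end. The richest Hox entry was Hoxa13 with 45, a count reached by 1.93% of promoters.

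The windows of the 6 H3K4me3 libraries held 10856015 to 32775874 reads. A window of the clusters held a median of 35 to 115 reads per library, so counting error is sizeable in single windows. Enrichment differed more between libraries, as seen in the ratio of reads between the 99th and the 40th percentile of windows, which was 13.5 and 14.3 in cKO and WT replicate 1 and between 3.47 and 6.97 in the other 4 libraries. The deposited values remove this difference by setting both percentiles equal in all libraries, and they are called normalized RPKM here. They can fall below 0, so differences and not folds are given. The start window of Setd1b itself, the gene that was deleted, averaged 4.36 normalized RPKM in cKO and 7.11 in WT and was a called loss. The start windows of 10 oocyte genes were between 4.69 and 7.79 in WT, and in 6 of them every cKO library lay below every WT library, as it did in 8.57% of the start windows of all protein-coding genes. Gdf9, an oocyte growth factor, was the 1 gene of the list whose cKO libraries all lay above the WT libraries, with 9.99, 12.6 and 9.52 in cKO and 7.30, 7.94 and 7.13 in WT, a difference of 3.24. The Gdf9 promoter is also part of the Cre transgene of the cKO mice, and whether transgene reads add to this window was not tested. The start windows of 6 granulosa cell genes were between 0.87 and 5.03 in WT; all 6 had a higher mean in cKO (median difference 1.02), every cKO library lay above every WT library in 2 of them (15.7% of all protein-coding starts), and Foxl2, a granulosa cell factor, was a called gain. Whether carry-over of these cells had a part in the Hox values was not tested.

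H3K4me3 was higher in cKO than in WT oocytes over all 4 clusters. Over the 51 members the level was 4.92 ± 0.20 normalized RPKM in cKO and 3.58 ± 0.12 in WT (SD, n = 3 libraries each), a difference of 1.35. The mean was higher in cKO in 49 members, and in 27 members every cKO library lay above every WT library, as it did in 9.88% of all windows tested. In 0 members did every cKO library lie below every WT library (9.95% of all windows). At an adjusted p under 0.05 in limma, 9 members were called as gains and 0 as losses, against 0.563% and 0.454% of all windows. Since this contrast proposed the clusters, nothing is read from these counts. Of the 51 members, 43 lay in the top CpG decile of all windows. In that decile 19.7% of windows had every cKO library above every WT library, and 1.98% were called gains. The calls depended on the test and on single libraries. With edgeR on the whole reads recovered from the values, 0 of the 51 members were called and 4 had an unadjusted p under 0.05 (30 in limma), although 5369 gains, 1.07% of 503726 windows, were found. In limma, leaving out cKO replicate 4 or any WT library also gave 0 member calls, with 26 to 30 members at an unadjusted p under 0.05, leaving out cKO replicate 3 gave 3, and leaving out cKO replicate 1 gave 16.

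The gain was not spread evenly over the clusters. From first to last member, cKO exceeded WT by 1.88 normalized RPKM in Hoxa and 1.87 in Hoxd, and by 1.05 in Hoxc and 0.92 in Hoxb. The mean of all windows differed by −0.08, and that of the 52929 windows in the top CpG decile by 0.26. Hoxa stood at 5.21, 4.85 and 4.81 in cKO replicates 1, 3 and 4 and at 3.04, 3.02 and 3.18 in WT replicates 1, 2 and 4. Hoxd stood at 5.15, 5.63 and 5.33 in cKO and at 3.41, 3.38 and 3.70 in WT. The cKO libraries were thus all above the WT libraries in both, with a gap larger than the spread within a genotype. Hoxb stood at 4.48, 5.25 and 4.76 in cKO and at 3.68, 4.01 and 4.03 in WT. Hoxc stood at 4.19, 4.57 and 4.58 in cKO and at 3.38, 3.39 and 3.41 in WT. The genotypes did not overlap here either, but the cKO libraries of Hoxb were spread more widely, with an SD of 0.39 against 0.22 in Hoxc.

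**Figure D1:**
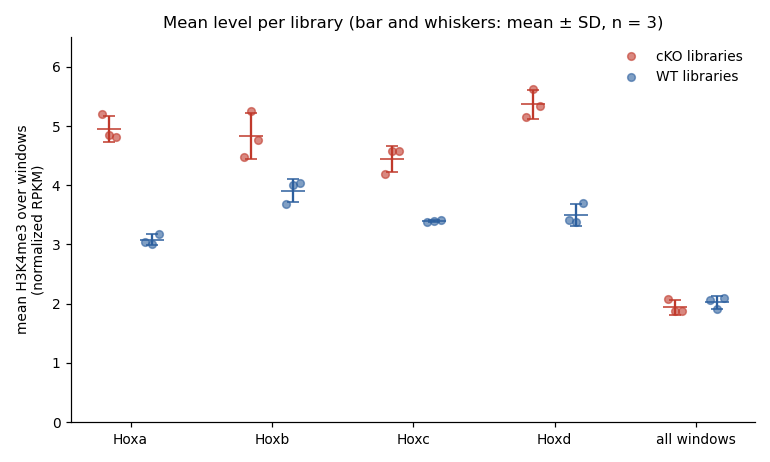
Mean H3K4me3 (normalized RPKM) over every window from the first to the last member of each cluster and over all 544879 windows, 1 point per library, with the mean and SD of 3 libraries per genotype. The cKO libraries lie above the WT libraries in all 4 clusters, by 1.88 in Hoxa and 1.87 in Hoxd against 0.92 in Hoxb and 1.05 in Hoxc, and the genotypes overlap over all windows.

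Hoxa and Hoxd, grouped here after their values were seen, changed sides relative to Hoxb and Hoxc. In every WT library the Hoxa and Hoxd windows together were lower than those of Hoxb and Hoxc, with differences of −0.34, −0.56 and −0.35 normalized RPKM in replicates 1, 2 and 4. In every cKO library they were higher, with differences of 0.81, 0.25 and 0.38 in replicates 1, 3 and 4. The single clusters did not all follow, since in cKO replicate 3 Hoxa was below Hoxb, and in WT replicates 1 and 4 Hoxd was already above Hoxc. On RPM (whole reads scaled to library size without the enrichment normalization), a scale chosen after seeing the data, the genotypes separated in 2 of the 4 clusters. The cKO to WT ratio of mean RPM was 1.53 in Hoxa and 1.40 in Hoxd, where the cKO libraries were all above the WT libraries, and 1.19 in Hoxc and 1.11 in Hoxb, where libraries of the genotypes overlapped. Replicate 1 had the highest RPM of the cKO libraries in all 4 clusters, and without it the ratios were 1.27 in Hoxa, 1.22 in Hoxd, 1.08 in Hoxc and 1.00 in Hoxb. In RPM 19 of the 51 members were separated, against 7.08% of all windows. On the deposited scale, every cKO library lay above every WT library in 18 of 22 windows of Hoxa, 18 of 21 of Hoxd, 13 of 24 of Hoxc and 14 of 36 of Hoxb, against 9.88% of all windows. Of these, 7, 5, 1 and 2 were called gains, against 0.563% of all windows.

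**Figure D2:**
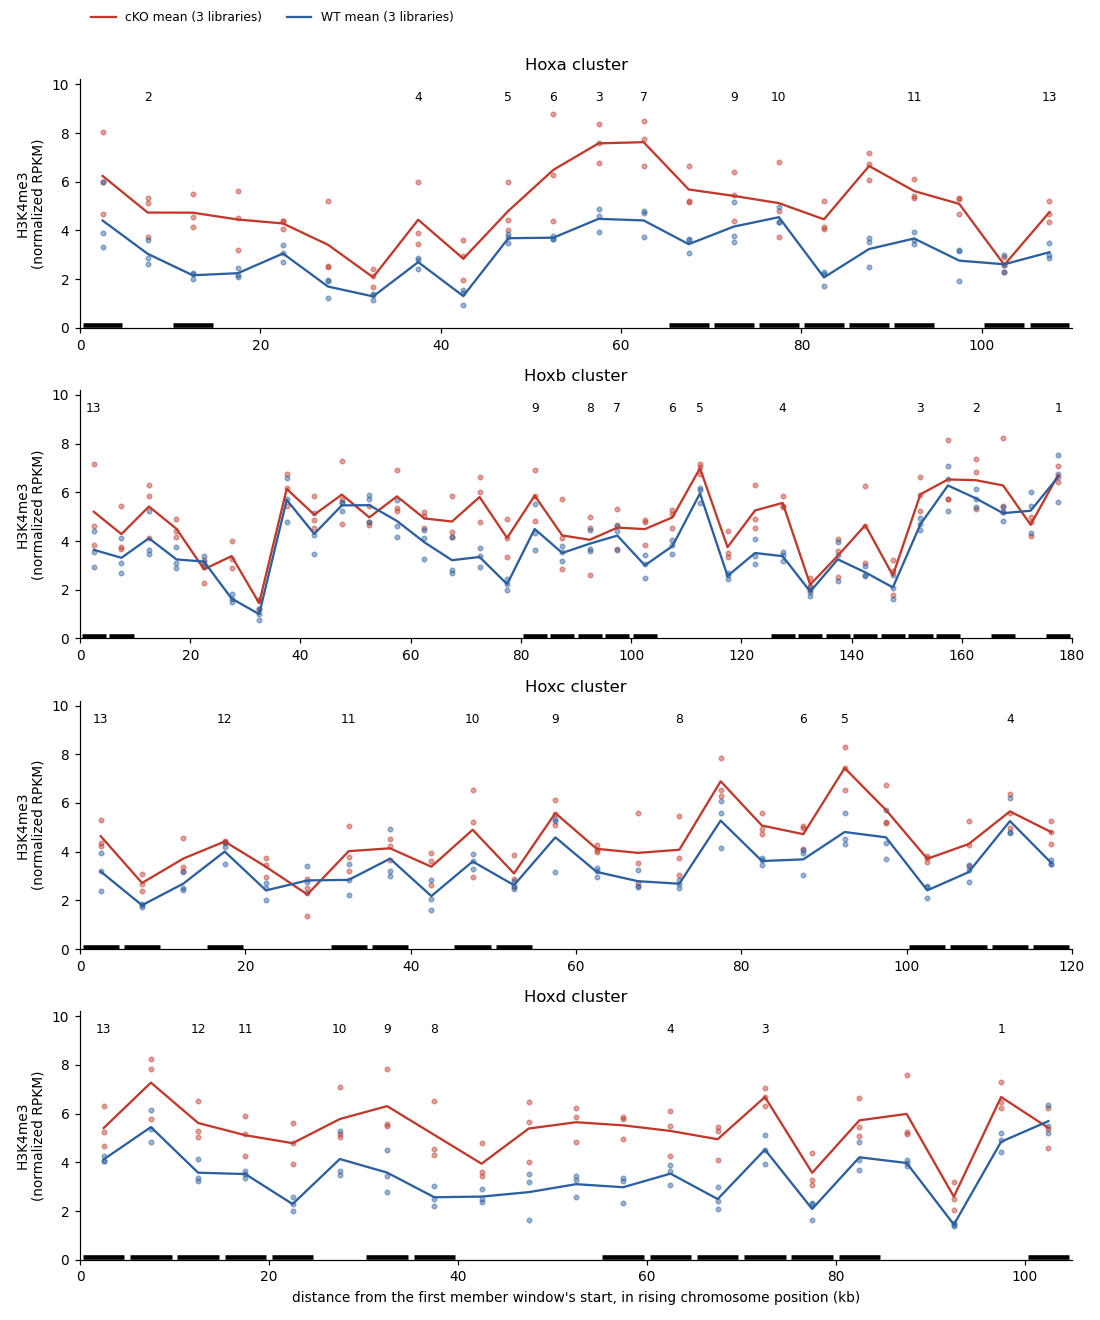
H3K4me3 (normalized RPKM) in each 5 kb window against distance from the start of the first member window (kb), with 1 point per library, lines for the genotype means, numbers at the windows holding the starts of named Hox genes and black bars under member windows. The cKO line runs above the WT line along most of Hoxa and Hoxd, while both lines nearly meet at the last window of Hoxb and of Hoxd.

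In Hoxa, 21 of 22 windows were higher in cKO, and 13 of the 18 separated windows formed an unbroken stretch of 65 kb from chr6:52160001 to 52225000, from Hoxa2 to Hoxa7. WT means ranged from 1.29 to 4.54 normalized RPKM and cKO means from 2.08 to 7.62. The largest difference, 3.41, fell at chr6:52240001-52245000, a window that holds parts of Hoxa10 and Hoxa11, the RefSeq promoter entry of Hoxa10 printed above and the start of the antisense RNA Hoxa11os. It held 6.72, 7.17 and 6.05 in cKO replicates 1, 3 and 4 and 3.53, 2.49 and 3.69 in WT replicates 1, 2 and 4. All cKO values there were far above all WT values, and the window was a called gain. The Hoxa7 start window (chr6:52215001-52220000) and the neighbouring Hoxa3 start window (chr6:52210001-52215000) followed, with differences of 3.21 and 3.10, and both were called. Hoxa3 patterns hindbrain and pharyngeal tissues, and its cKO libraries held 6.77, 8.36 and 7.59 against 4.89, 3.95 and 4.59 in WT. The gain was interrupted at the posterior end. The window at chr6:52255001-52260000, downstream of the start of Hoxa13, a gene needed for the digits and genital tubercle, held 2.89, 2.29 and 2.58 in cKO and 2.28, 2.98 and 2.58 in WT. The genotypes overlapped fully there, although the windows on either side were separated. The last member, with the Hoxa13 start, held 5.22, 4.66 and 4.36 against 2.85, 3.47 and 3.00. The window with the highest WT mean, chr6:52230001-52235000 with the Hoxa10 start, held 6.83, 3.74 and 4.80 in cKO and 4.94, 4.34 and 4.35 in WT, and cKO replicate 3 was below all WT libraries.

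In Hoxd, 20 of 21 windows were higher in cKO, and 14 neighbouring windows (70 kb, chr2:74695001-74765000, from Hoxd9 to Hoxd1) were all separated. WT means ranged from 1.45 to 5.69 and cKO means from 2.59 to 7.27. The difference was 1.95 over the 7 posterior windows, 2.26 over the 7 middle windows and 1.41 over the 7 anterior windows. The largest, 2.73, fell at the Hoxd9 start window (chr2:74695001-74700000), which held 5.50, 5.59 and 7.84 in cKO and 3.43, 2.79 and 4.53 in WT. Called gains lay in the window after the Hoxd11 start, in a pair of windows between the Hoxd8 and Hoxd4 starts, and in a pair up to and including the Hoxd3 start, 5 windows in all. The window of the first pair that lies nearer to the Hoxd4 start holds the RefSeq promoter entry of Hoxd4. Hoxd3 acts in vertebral and neural patterning, and its start window held 6.33, 7.04 and 6.68 in cKO against 3.95, 5.12 and 4.50 in WT. The Hoxd12 start window was separated, with a difference of 2.04, and that of Hoxd10 was not, with 1.64. The first member, with the start of the limb gene Hoxd13, held 6.33, 4.66 and 5.23 against 4.26, 4.05 and 4.05. Its groups were separate, but cKO replicate 3 came close to the WT values. The last member (chr2:74765001-74770000), at the 3' end of Hoxd1, had the highest WT mean of the cluster and held 5.39, 6.25 and 4.60 in cKO and 5.20, 5.51 and 6.35 in WT. The genotypes overlapped there, 1 window beyond the Hoxd1 start, where the difference was 1.84.

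In Hoxb, 33 of 36 windows were higher in cKO, but the libraries of the genotypes overlapped in most of them. The difference was 1.20 over the 12 middle windows and 0.76 and 0.81 over the 12 posterior and 12 anterior windows. The longest separated stretch, 30 kb (chr11:96290001-96320000), ran from the 3' end of Hoxb7 to Hoxb4. It ended in the Hoxb4 start window (chr11:96315001-96320000), the only called member of the cluster, with 5.39, 5.45 and 5.86 in cKO and 3.16, 3.56 and 3.42 in WT. The other called window, between Hoxb13 and Hoxb9 at chr11:96260001-96265000 under the predicted gene Gm53, held 4.78, 6.64 and 6.0 against 2.96, 3.37 and 3.72. With a difference of 2.46 it was the largest of the cluster. Hoxb1, expressed in the fourth hindbrain segment, had the smallest difference among the members and the highest WT mean, 6.63, of all 103 windows. Its start window, the last of the cluster, held 6.44, 6.64 and 7.06 in cKO and 6.77, 5.61 and 7.52 in WT, which is full overlap. The first member, with the start of the prostate and hindgut gene Hoxb13, held 3.84, 7.17 and 4.60 in cKO and 2.96, 3.56 and 4.41 in WT; cKO replicate 3 was far above the rest. The Hoxb3 start window was separated, with a difference of 1.23, whereas at Hoxb8 it was 0.16 and cKO replicate 4 was below all WT libraries. Between Hoxb13 and Hoxb9, 8 neighbouring windows with no assigned gene held the lowest WT mean of the cluster, 1.00, next to means up to 5.69.

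In Hoxc, 23 of 24 windows were higher in cKO, by 0.72 over the 8 posterior, 1.14 over the 8 middle and 1.29 over the 8 anterior windows. The level rose in the same direction in WT, from 2.93 to 3.36 and 3.88. The largest difference, 2.63, fell outside the members, at the Hoxc5 start window (chr15:103010001-103015000, assigned to Gm20398), which held 6.55, 7.43 and 8.32 in cKO and 5.57, 4.54 and 4.32 in WT and was the only called window of the cluster. Among the members the largest was the first, with the start of Hoxc13, a gene of hair and nail formation. It held 4.22, 5.32 and 4.36 in cKO and 3.95, 2.40 and 3.21 in WT, so the groups were narrowly separated. The smallest among the members, 0.40, was at the Hoxc4 start (chr15:103030001-103035000), with 6.39, 5.59 and 4.99 in cKO and 4.79, 6.19 and 4.80 in WT. This window had the highest WT mean of the members and the genotypes overlapped, while the last member next to it held 4.33, 4.79 and 5.28 against 3.48, 3.66 and 3.48 and was separated. At the Hoxc10 start the difference was 1.30, but cKO replicate 3 was below all WT libraries. The only window lower in cKO lay at the Hotair start between Hoxc12 and Hoxc11, with 2.5, 1.36 and 2.87 against 2.75, 2.30 and 3.42.

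The gain was seen at gene starts and between them. The 39 starts lay in 39 windows, where the level was 5.55 ± 0.10 normalized RPKM in cKO and 4.04 ± 0.13 in WT (SD, n = 3), a difference of 1.52. The 64 windows without a start had a lower level, 4.47 ± 0.34 and 3.22 ± 0.11, and a difference of 1.25. This split depends on the definition of a start. Windows counted here as without a start hold RefSeq promoter entries of Hoxa10, Hoxd3 and Hoxd4, with differences of 3.41, 2.61 and 2.54. All 39 start windows had a higher mean in cKO. Every cKO library was above every WT library in 25 of them and 6 were called gains, while of 21914 start windows of protein-coding genes 15.7% were separated in this direction and 1.25% called. By cluster the separated starts were 8 of 11 in Hoxa, 8 of 9 in Hoxd, 5 of 9 in Hoxc and 4 of 10 in Hoxb. The 6 called starts were those of Hoxa3, Hoxa7, Hoxa11, Hoxb4, Hoxc5 and Hoxd3; Hoxa11, which acts in the limb zeugopod and the uterus, held 6.11, 5.32 and 5.42 against 3.43, 3.95 and 3.63.

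Pooled over the clusters, the gain was of similar size along the head-to-tail order. It was 1.58 at the 8 anterior genes (paralogues 1 to 3), 1.57 at the 15 central genes (4 to 8) and 1.44 at the 16 posterior genes (9 to 13). The levels themselves were higher at anterior starts, at 6.38 ± 0.26 in cKO and 4.80 ± 0.18 in WT, than at central starts, at 5.45 ± 0.11 and 3.89 ± 0.06, or posterior starts, at 5.23 ± 0.17 and 3.8 ± 0.27. Within the anterior group the clusters went apart, with differences of 2.21 in Hoxa, 2.00 in Hoxd and 0.68 in Hoxb. The central group gave 2.22 in Hoxa, 0.98 in Hoxb, 1.36 in Hoxc and 2.16 in Hoxd. The posterior group gave 1.36 in Hoxa, 1.47 in Hoxb, 1.07 in Hoxc and 1.86 in Hoxd. The posterior value was thus the lowest of its cluster in Hoxa, Hoxc and Hoxd and the highest in Hoxb. Hoxc has no anterior gene, so the pooled means differ in the clusters they hold. Paralogues 13, the only posterior number with a gene in each cluster besides 9, were close to each other, from 1.29 in Hoxd13 to 1.64 in Hoxa13. Paralogues 7 were far apart, with 3.21 at Hoxa7 and 0.33 at Hoxb7, whose libraries overlapped.

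**Figure D3:**
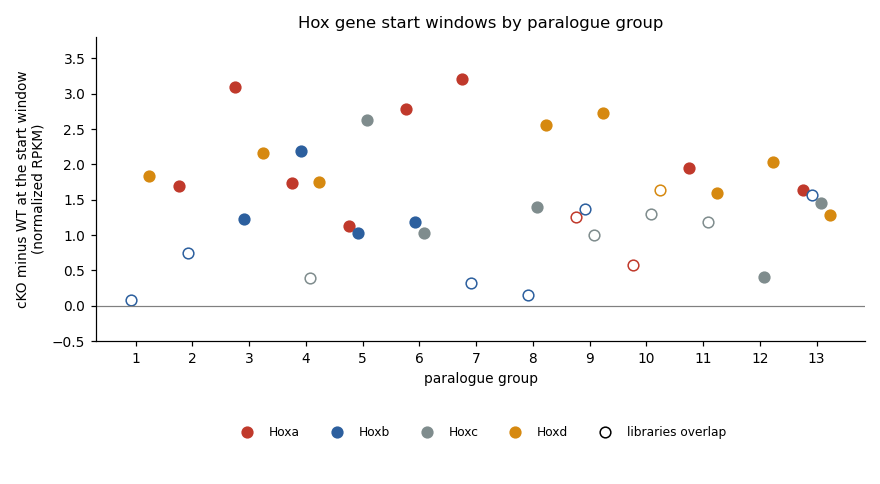
Difference between the cKO and WT means (normalized RPKM, 3 libraries each) at the windows holding the starts of the Hox genes reported here, by paralogue number and cluster; open circles are windows in which libraries of the genotypes overlap. All points lie above 0, from 0.081 at Hoxb1 to 3.21 at Hoxa7, and most open circles belong to Hoxb and Hoxc.

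Non-coding RNAs that start inside the clusters were in the same windows or between the Hox starts, and 9 of 10 had a higher mean in cKO. Every cKO library was above every WT library at 7 of these starts, and 3 were called gains (Hoxa11os, Hoxaas2 and Hoxd3os1), against 9.88% and 0.563% of all windows. Hoxaas2 (chr6:52165001-52170000) held 5.50, 4.13 and 4.56 in cKO and 2.22, 2.01 and 2.25 in WT, a difference of 2.57. Hottip, an RNA from the posterior end of Hoxa, shares its window with the Hoxa13 start. The exception was Hotair, given above with Hoxc. The microRNAs of the clusters, which belong to the miR-10 and miR-196 families and to miR-615, lay in 6 windows that were all higher in cKO, with separated libraries in 4 (9.88% of all windows). Mir10a shares the called Hoxb4 window and Mir615 the called Hoxc5 window. Mir196a-1, between Hoxb13 and Hoxb9, held 3.34, 4.93 and 4.12 in cKO against 2.22, 2.01 and 2.46 in WT. For the other members of the families, Mir10b was separated, with a difference of 1.75, and Mir196b and Mir196a-2 overlapped, with 0.58 and 0.48.

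The cluster windows were rich in CpG, with a median of 119 CpGs per 5 kb against 34 in all windows, and 78 of the 103 were in the top CpG decile. Repeats were sparse, with a median of 14.5% of bases masked against 28.6%. Windows of this decile had a difference of 1.47 normalized RPKM (5.11 ± 0.09 in cKO and 3.64 ± 0.12 in WT, SD, n = 3), and the other 25 windows 0.98 (4.16 ± 0.52 and 3.19 ± 0.11). Of these 25, 13 lay in Hoxb, the cluster with the smallest gain. Within clusters the differences in this decile and in the other windows were 1.96 and 1.35 in Hoxa, 1.08 and 0.64 in Hoxb and 1.99 and 1.49 in Hoxd. In Hoxc the order was the reverse, with 1.03 and 1.16 (4 other windows). Across the 22 windows of Hoxa, Pearson's r of the CpG count was 0.72 with the WT level, 0.49 with the cKO level and −0.006 with the difference. It was 0.25 and 0.21 in the 36 windows of Hoxb for the WT level and the difference, 0.40 and 0.23 in the 24 of Hoxc, and 0.16 and 0.18 in the 21 of Hoxd. The share of masked bases had negative r with the difference in all 4 clusters, from −0.20 in Hoxc to −0.50 in Hoxb. These are descriptions across neighbouring windows of the same libraries, which are not independent. The WT profile was kept in outline, with r between the WT and the cKO means of 0.81, 0.85, 0.88 and 0.79 in Hoxa, Hoxb, Hoxc and Hoxd. Input was nearly level, at 2.10 and 1.94 RPM per window in cKO replicates 1 and 4 and 2.03 and 1.84 in WT replicates 1 and 4 over the 103 windows.

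**Figure D4:**
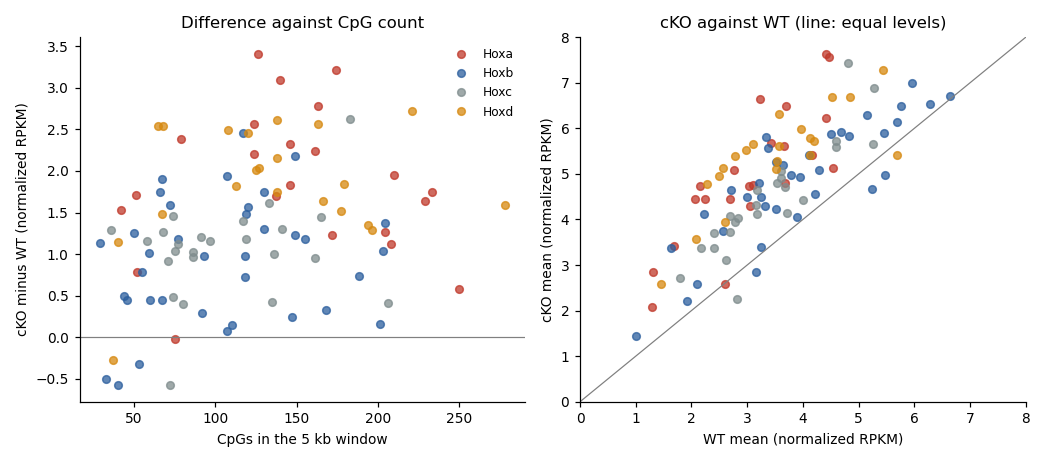
Left, cKO minus WT (normalized RPKM) against the number of CpGs in each of the 103 windows, by cluster; right, cKO mean against WT mean (normalized RPKM, 3 libraries each) with the line of equal levels. Differences are spread widely at every CpG count, and 97 of the 103 points lie above the line.

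The ends of the gain differed between the clusters. The gain was followed outward from the outermost member until 2 neighbouring windows in a row no longer had all cKO libraries above all WT libraries. Over all windows, 9.88% were separated in this direction and 0.563% were called gains, which are the shares to set beside the flank counts below. It ended after 45 kb on the Skap2 side and 60 kb on the Evx1 side of Hoxa, after 20 kb on the Evx2 side of Hoxd and after 5 kb on the Smug1 side of Hoxc. By this rule it did not pass the outermost member on the Mtx2 side of Hoxd, the Calcoco1 side of Hoxc, or either side of Hoxb. Inside Hoxb itself only 14 of 36 windows were separated, so the rule says little about the ends of that cluster. With a mean difference above 0.5 as the measure, the end of Hoxb towards Ttll6 lay at 90 kb.

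On the Skap2 side of Hoxa, beyond the anterior end, the first window outside (chr6:52150001-52155000) had a larger difference than any window of the clusters, 3.52, with 5.67, 6.25 and 3.78 in cKO and 1.70, 1.42 and 2.01 in WT. The gain was interrupted by the pair of windows at 50 and 55 kb, at Gm15055 and the start of the non-coding RNA Halr1, in which cKO means were higher by 0.83 and 1.61 but libraries overlapped. It then went on to 125 kb, where the rule with a run of 3 windows ended it. Of the 25 windows up to there, 21 were separated and 6 were called gains (9.88% and 0.563% of all windows). Their level was 3.8 ± 0.45 in cKO and 1.80 ± 0.13 in WT (SD, n = 3). WT was lower there than in the cluster itself, where it averaged 3.08. The next windows, towards the start of the adaptor gene Skap2, turned to the other side, with −0.53 at 130 kb. At the Skap2 start window the values were 5.94, 5.06 and 4.89 in cKO and 6.15, 7.16 and 6.5 in WT, every cKO library below every WT library. Farther out, from 200 to 500 kb, cKO was again higher, by 0.65, with 20 of 60 windows separated.

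On the posterior side of Hoxa the gain reached past the homeobox gene Evx1. All 9 windows up to 45 kb were separated, with a called gain at 30 kb (4.11, 3.74 and 4.36 in cKO against 0.97, 1.81 and 0.84 in WT). The Evx1 start window was not part of it, with 5.0, 5.06 and 3.50 in cKO and 5.05, 6.29 and 4.05 in WT. At 60 kb the cKO libraries held 9.94, 6.91 and 5.81 against 4.52, 4.73 and 4.86. The mean difference fell from 1.58 in the first 25 kb to 1.21 from 25 to 50 kb and 0.65 from 50 to 100 kb, and was 0.69 from 100 to 200 kb, where 7 of 20 windows were separated. From 200 to 500 kb it was 0.069, with overlapping libraries.

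Evx2, the homeobox gene next to Hoxd13 and the counterpart of Evx1, behaved otherwise. Its start window held 7.50, 6.38 and 6.63 in cKO and 5.0, 4.34 and 4.47 in WT, a difference of 2.23, and was a called gain. All 4 windows of the 20 kb past Hoxd13 were separated and 3 were called (9.88% and 0.563% of all windows). Beyond 25 kb the difference was 0.31 up to 50 kb, −0.22 from 50 to 100 kb and 0.39 from 200 to 500 kb. At the other end, beyond Hoxd1, it was 0.18 in the first 25 kb and 0.44 from 200 to 500 kb, and the Mtx2 start window held 3.72, 4.00 and 3.78 in cKO and 4.63, 3.95 and 2.94 in WT.

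On the Ttll6 side of Hoxb the mean stayed higher in cKO, by 0.85 in the first 25 kb, 1.06 from 25 to 50 kb and 0.97 from 100 to 200 kb. In each of these stretches the cKO library means were all above the WT library means, while from 50 to 100 kb (0.86) they overlapped. Of single windows, 1 of 25 up to 125 kb but 7 of 20 from 100 to 200 kb were separated, and 2 of these 20 were called gains. On the Skap1 side the difference was 0.44 in the first 25 kb, 0.80 from 25 to 50 kb, with 2 of 5 windows separated, and −0.10 from 50 to 100 kb. Around Hoxc the first 25 kb differed by −0.06 on the Calcoco1 side and −0.07 on the Smug1 side, and at both the libraries of the genotypes overlapped. Farther out the difference was 0.50 from 25 to 50 kb on the Smug1 side, with overlapping libraries, and 0.56 from 100 to 200 kb on the Calcoco1 side, where 5 of 20 windows were separated. It was −0.28 from 25 to 50 kb on the Calcoco1 side, and −0.35 from 50 to 100 kb on the Smug1 side, where the cKO libraries were all below the WT libraries. In that last stretch 1 of 10 windows was a called loss, against 0.454% of all windows. The start windows of Skap1, Calcoco1 and Smug1 differed by −0.36, 0.19 and −0.53, with overlapping libraries in each.

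**Figure D5:**
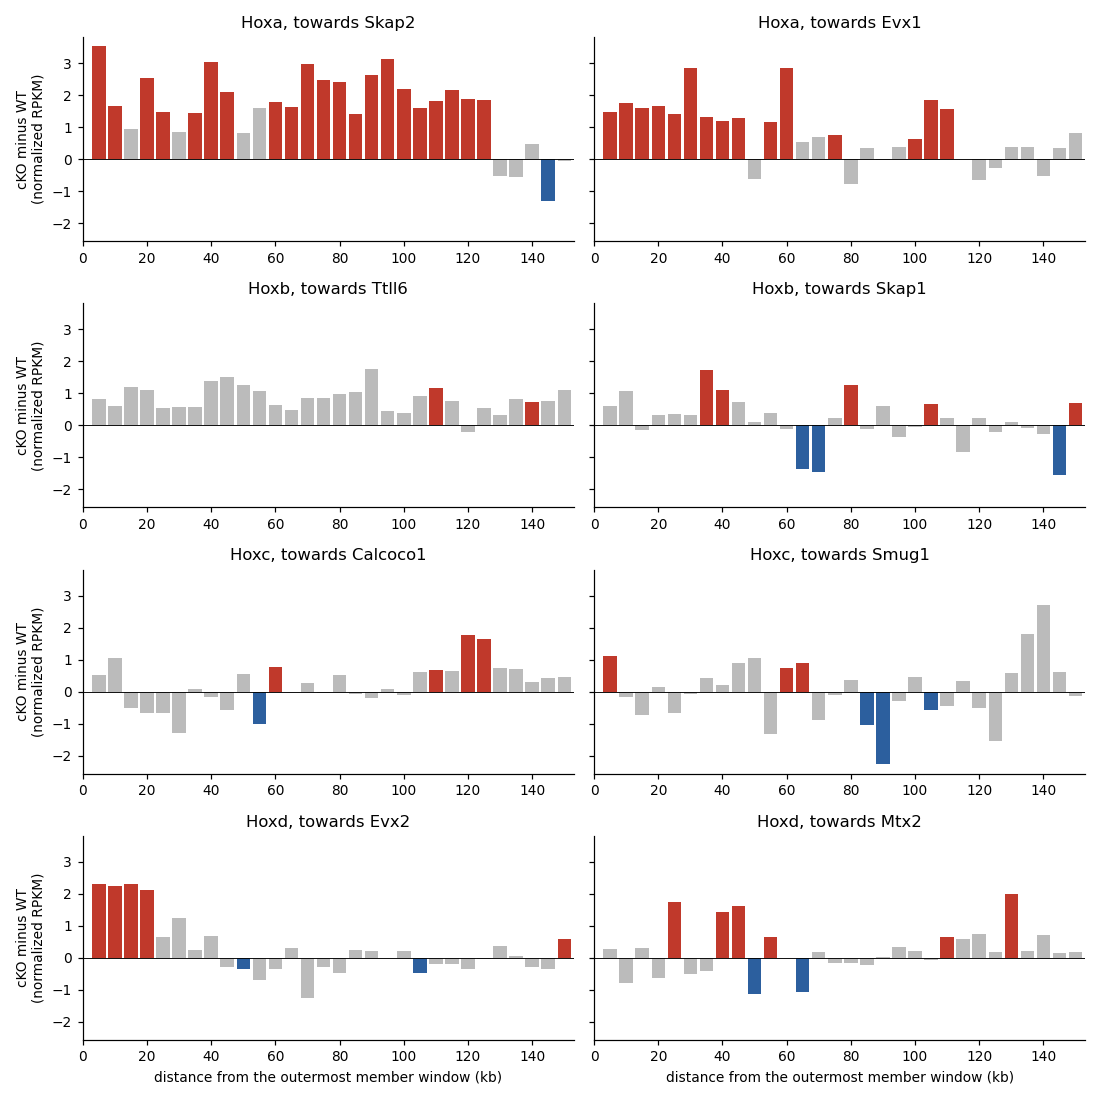
Difference between cKO and WT means (normalized RPKM) in the 5 kb windows outside each cluster against distance from the outermost member (kb), up to 150 kb; red bars have every cKO library above every WT library, blue bars every cKO library below every WT library, and grey bars overlapping libraries. Red bars run on to 125 kb, with 4 grey bars among them, on the Skap2 side of Hoxa and stop after 20 kb on the Evx2 side of Hoxd.

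Genes that work with Hox proteins or resemble them did not all move one way. The list held TALE partners of the Pbx, Meis and Pknox families and the ParaHox genes Pdx1, Gsx1, Gsx2, Cdx2 and Cdx4, which are relatives of the Hox genes outside the clusters. Of the 14 start windows, 10 had a higher mean in cKO, 5 had every cKO library above every WT library, and 2 had every cKO library below. In all protein-coding starts these shares were 15.7% and 8.57%. Limma called 0 of the 14 in either direction (7 at an unadjusted p under 0.05), while edgeR or an intensity trend in limma gave 1 loss each and the replicate block 2 gains. Their median difference was 0.63, against 0.12 over the start windows of all protein-coding genes. The separated starts with higher cKO values were those of Pbx3, Meis1, Pknox2, Gsx2 and Cdx2, the last with 7.33, 6.25 and 7.02 in cKO and 5.57, 3.08 and 6.11 in WT. Those with lower values were Meis3 and Pdx1, the pancreatic ParaHox factor, with 1.12, 2.15 and 2.05 against 3.11, 5.41 and 2.85.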

How the data were processed

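H3K4me3 ULI-nChIP-seq values of d21 GV oocytes (3 cKO and 3 WT libraries) and of 4 input libraries were used in the 5 kb windows that the authors deposited. Per the labels and the study's methods, reads were trimmed with Trim Galore 0.4.2 and mapped to GRCm38 with Bowtie2 2.2.9, and windows with high input were removed. The deposited H3K4me3 values are a score on a linear scale, the enrichment-normalized RPKM made by the authors in SeqMonk, and the deposited input values are a signal per window scaled to library size. Whole reads were recovered from the steps between values (100% whole within 0.05 in each library). Duplicates cannot be told from independent fragments.

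Members and gene lists were chosen with earlier results of these data known. All windows were fitted with limma 3.58.1 in R 4.3.3 (two-sided, with no intensity trend, p-values adjusted by Benjamini-Hochberg over all windows, threshold 0.05), and edgeR 4.0.16 (TMM, quasi-likelihood, windows with at least 10 reads) was run on the whole reads; both were tested on simulated data. Tables were made with Python 3.11.15, pandas 2.3.3, numpy 2.4.6 and matplotlib 3.10.9. The Hox genes were named, with every library given for each cluster's largest and smallest difference, highest WT level, and first and last member, except for items that are not reported here; called windows were added after their values were seen. Gene starts came from GENCODE M21 (the start of the APPRIS principal transcript nearest the start codon, a definition chosen after seeing the data), and CpGs and masked bases from the GRCm38 sequence. No p is given for members. The study's methods call the oocyte pools biological replicates and leave out 1 poor library per genotype. They do not say which animals gave each pool, so p-values measure the spread between these libraries.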

Additional observations from a re-analysis of the deposited data

How the results depend on the processing

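Over the 51 members no loss was called under any alternative run. Among all windows 3066 gains and 2473 losses were called by limma. On log2(value + 1) this gave 0 calls, with 73232 windows at an unadjusted p under 0.05, and 0 called members (22 at an unadjusted p under 0.05). With an intensity trend 19492 windows were called. With edgeR on whole reads 11514 windows were called (5369 gains, 6145 losses), 0 of the members and 1 of the 103 windows from first to last member. Leaving out 1 library gave 0 to 17979 called windows, 0 to 16 called members, and 0 to 27 of the 103; 0 calls came without cKO replicate 4 (67065 windows at an unadjusted p under 0.05), WT replicate 2 (66258) or WT replicate 4 (54213). Replicate numbers 1 and 4 were shared by the genotypes, with correlations of deviations of 0.319 (the highest of the 9 pairs) and 0.019 between same-numbered libraries; the labels do not say what the numbers share, and pairing was not established. With the replicate block 33433 windows, 20 members and 41 of the 103 windows were called.

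The cluster differences over the members kept their sign under every alternative run, but for Hoxb libraries of the genotypes overlapped with the median over windows and in RPM, and for Hoxc in RPM. From first to last member, the Hoxb ratio of mean RPM was 1.00 without cKO replicate 1, so that cKO was no longer higher (1.00 to 1.17 with 1 library left out). On log2(value + 1) they were 0.50 (Hoxa), 0.24 (Hoxb), 0.29 (Hoxc) and 0.51 (Hoxd), and in RPM over the members 0.389 (Hoxb), 0.626 (Hoxc) and 1.35 (Hoxd). The Hoxc member difference was 0.934, with 1.05 from first to last member and 1.10 as a median. With 1 library left out the member differences were 1.50 to 1.94 in Hoxa, 0.599 to 1.11 in Hoxb, 0.891 to 0.971 in Hoxc and 1.67 to 2.02 in Hoxd. Windows in which the cKO libraries all exceeded the WT libraries numbered 63 from first to last member. With a gene's outermost 5' end as its start, the starts lay in 36 windows, of which 24 were separated and 4 called.

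Several flank ends moved with the rule. Towards Skap2 the gain of Hoxa ended at 10 kb with a run of 1 window and at 125 kb with a run of 3 windows, with a mean difference above 0.5 as the measure, or in RPM. Towards Evx1 these were 45, 75, 75 and 40 kb. With a mean difference above 0.5 the other ends were 90 kb (Hoxb towards Ttll6), 10 kb (Hoxb towards Skap1), 10 kb (Hoxc towards Calcoco1) and 40 kb (Hoxd towards Evx2). With 1 library left out the ends ranged from 45 to 125 kb towards Skap2 (125 kb without cKO replicate 3 or 4 or WT replicate 2), 60 to 75 kb towards Evx1, 0 to 10 kb towards Ttll6, 0 to 20 kb towards Skap1, 0 to 10 kb towards Calcoco1, 5 to 5 kb towards Smug1, 20 to 40 kb towards Evx2 and 0 to 5 kb towards Mtx2. The cause was not tested.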
